A study of Homo sapiens with 2 samples.

Results

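RBMS3 is an RNA-binding protein, and its contacts with RNA were mapped by CLIP-seq, in which ultraviolet light joins protein to RNA in living cells before the protein and its RNA are recovered together. The transcripts described here are those of 45 genes that copy DNA or supply its nucleotides, chosen as a list of gene symbols that covers the MCM helicase, the origin recognition complex, licensing factors, CDC45 and GINS, the sliding clamp and its loader, RPA, the replicative polymerases and primase, 2 enzymes of Okazaki fragment processing and 4 of nucleotide supply. All 45 were found among the 20020 protein-coding gene symbols of GENCODE release 44, and every RBMS3 site on the strand of such a gene was given to it. In all, 114 of the 27706 sites in the list lay in these genes, 34 genes held at least 1 site and 11 held none.

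The cells were MDA-MB-231, a human breast cancer line of the triple-negative subtype, and they carried FLAG-tagged RBMS3. Both replicates were irradiated with ultraviolet light of 254 nm at 400 mJ per cm2. There was 1 group with 2 biological replicates, no control library was analysed here, and the tags of both replicates were pooled before sites were called, so no value has an error between replicates. The title of replicate 2 names MDA-MB-231, whereas its source and cell line labels read MDA-MB-232. Tagged RBMS3 was recovered in place of the endogenous protein, so the sites are those of the tagged form at the level at which it was expressed. Of 5 marker genes of mesenchymal breast cancer lines, all 5 (VIM, CD44, AXL, CAV1 and MSN) held a site in the 3′UTR, against 2 of 5 luminal markers (GATA3 and EPCAM, with at most 47 deletions, whereas ESR1, PGR and FOXA1 held none). Over all protein-coding genes the share with a 3′UTR site was 31.8%, so the luminal markers were not below it. The markers are only a rough check of the line.

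A cell licenses its origins by loading MCM rings onto DNA that is marked by the origin recognition complex, with the help of CDC6 and CDT1, and geminin (GMNN) blocks CDT1 afterward. In S phase, CDC45 and GINS turn the rings into working helicases, RPA coats the exposed single strands, primase starts each new strand, and the clamp PCNA, loaded by the RFC complex, holds the polymerases on the template. Ribonucleotide reductase (RRM1 and RRM2), thymidylate synthase (TYMS) and thymidine kinase (TK1) supply the deoxynucleotides. Many of these genes are transcribed together as cells enter S phase.

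A site is the position of a deletion in the sequenced tags (unique RNA fragments), which the method reads as the mark left when reverse transcription passes a base joined to protein. For each site, the list gives its covering tags and how many of them had the deletion. The percentage is the ratio of these counts, and its 95% Wilson interval covers counting error only. Tags depend on how abundant a transcript is as well as on how much of it was recovered, transcript abundance was not analysed here, and in such bulk samples fewer cells of a type and less RNA per cell cannot be told apart. A gene without a listed site may be unbound or little expressed, and these cannot be told apart. In the whole list, no site with a percentage under 30% was covered by fewer than 110 tags, so a low percentage could not be seen on a sparsely covered transcript.

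Sites in the 3′UTR were present in 32 of the 45 genes (71.1%), compared with 31.8% of all protein-coding genes, a background that includes genes the cells do not express. A site of any kind was present in 34 genes (75.6%), against a background of 37.6%. When only 3′UTR sites with a percentage under 30% were counted, 31 genes remained (68.9%), against 27.6%. A 3′UTR site within 100 nt of an annotated transcript end was present in 25 genes (55.6%), against 24.9%. The MCM genes (7 of 7, MCM10 included), RPA (3 of 3) and nucleotide supply (4 of 4) had 3′UTR sites throughout. The polymerases and primase had them in 3 of 9 genes, near the background, and FEN1 and LIG1 had none.

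The 12 genes with the most deletions at a single 3′UTR site are given with the sequence at that site. Only the leading site of each gene is shown, and some second sites of these genes had more deletions than leading sites shown for others. Each run is 30 nt of the reference (hg38) on the transcript strand, 5′ to 3′. Capitals mark the poly(A) signal nearest to the deletion, AATAAA or ATTAAA, which directs cleavage and polyadenylation of mRNA, and the deleted base, whose number in the run is given. In CDC6, which lacks the signal there, the capitals before the deletion mark a match to the AUA motif.

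RRM2 (chr2:10131386-10131415, plus strand, deleted base 22): gtgattaaAATAAAactgttcTtatgtcag
ORC6 (chr16:46698363-46698392, plus strand, deleted base 21): gcctaagttAATAAAtgttaTttatatatg
MCM7 (chr7:100092782-100092811, minus strand, deleted base 21): cttttgctAATAAAagtgttTgtagattgt
MCM3 (chr6:52264019-52264048, minus strand, deleted base 24): atgttgAATAAActtagccatttCgtacac
TYMS (chr18:673467-673496, plus strand, deleted base 21): gttgctatAATAAAgaagtgTtctgcattc
CDC6 (chr17:40302893-40302922, plus strand, deleted base 15): tgtGAATATAtttaTtttcaagttgcattc
RPA1 (chr17:1898028-1898057, plus strand, deleted base 9): tcccttgcTttgttttAATAAAcagtatat
GMNN (chr6:24786010-24786039, plus strand, deleted base 8): acttatgTttattactaAATAAActtcaaa
RFC4 (chr3:186789916-186789945, minus strand, deleted base 4): tttTgtaaataatgaagttgtAATAAAaat
CDC45 (chr22:19520563-19520592, plus strand, deleted base 10): tagaagccaTtttttATTAAAtaaaatgct
MCM6 (chr2:135840451-135840480, minus strand, deleted base 8): ctgctttTattcatcaaAATAAAataactt
RPA2 (chr1:27891540-27891569, minus strand, deleted base 12): agtcatatgttTAATAAAacagttctattg

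The signal lay within the same 30 nt as the deletion in 11 of these 12 runs. The runs were not centred on the deletion, so this count depends on how they were placed. With 10 nt on each side of the deletion, 34.7% of the 101 3′UTR sites held the signal. In RRM2, ORC6, MCM7, MCM3 and TYMS, the 5 genes with the most deletions, the deletion lay 3′ of the signal, and AATAAA started 11 to 17 nt upstream of the deleted base. In RPA1, GMNN, RFC4, CDC45, MCM6 and RPA2 the signal started 1 to 18 nt downstream of it. The deleted base was T in 11 runs and C in MCM3.

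**Figure D1:**
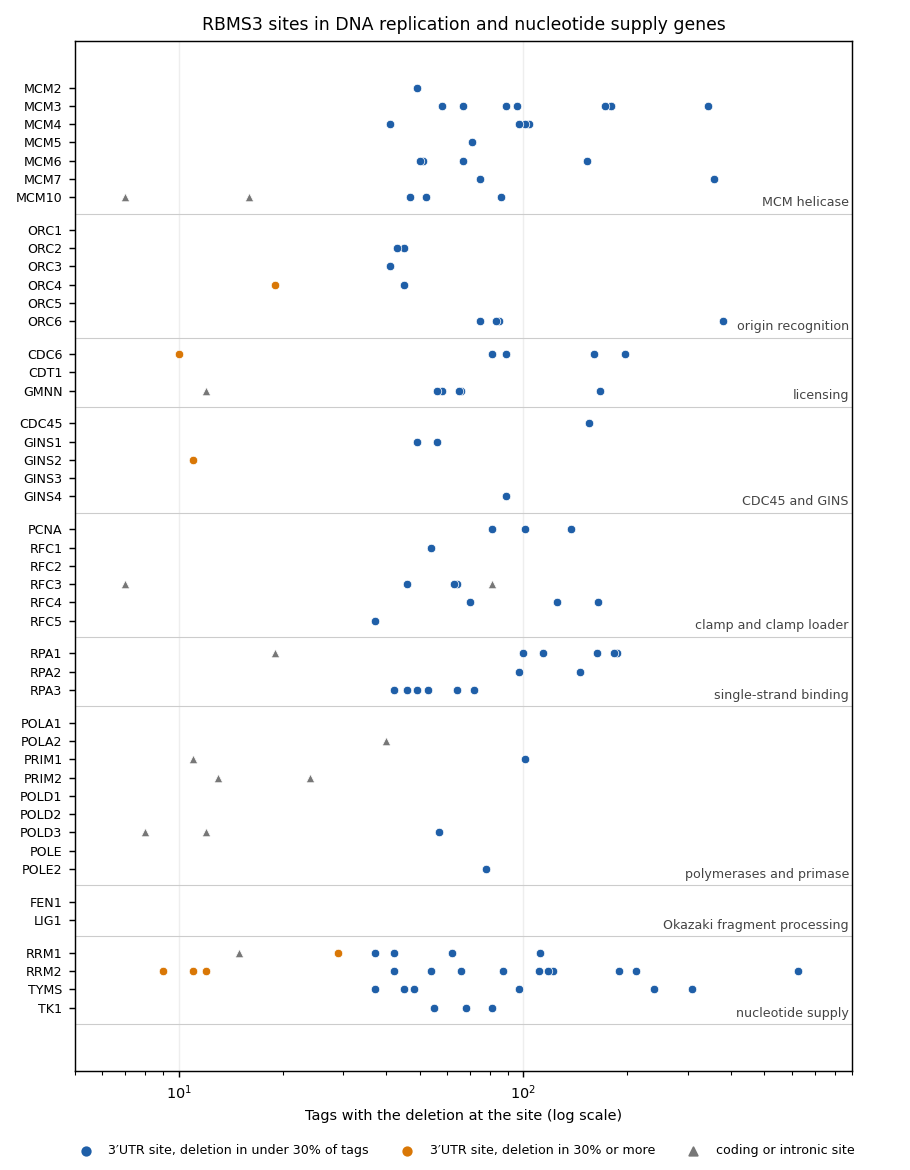
Tags with the deletion (log scale) at each of the 114 sites in the 45 genes, grouped by role. Blue circles are 3′UTR sites with a percentage under 30%, orange circles are 3′UTR sites with 30% or more, and gray triangles are coding or intronic sites. Rows without a symbol are the 11 genes without a site, and the site with the most deletions is the one of RRM2, at 625.

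Among the 45 genes, nucleotide supply held the highest deletion count at a single site. RRM2, the small subunit of ribonucleotide reductase (chromosome 2, 10120698 to 10211725, plus strand), had 13 sites in 7 clusters, in which sites within 50 nt of each other are joined. At position 10131407, 7 nt from a transcript end, 625 of 19310 tags carried the deletion (3.24%, interval 3.0 to 3.5%). This count ranked 281 among the top sites of 6362 genes with a 3′UTR site. The 5 other sites of that cluster had 87 to 212 deletions among 7215 to 21720 tags, with percentages from 0.531 to 1.21%. The interval of the leading site did not overlap theirs, although neighbouring sites are covered by many of the same tags.

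The RRM2 3′UTR was also contacted far from this end. A site 199 nt from the end had 122 deletions in 2203 tags (5.54%), and sites 1458, 1476 and 1671 nt from it had 42 to 66 deletions in 595 to 3334 tags. From 935 to 1226 nt lay 3 sites at which every tag carried the deletion, with 9, 11 and 12 tags. RRM1, the large subunit (chromosome 11, 4094707 to 4138932, plus strand), had 4 clusters. Its leading site, 329 nt from an end, had 112 deletions in only 664 tags (16.9%, interval 14.2 to 19.9%) and lay in a run of 10 T, whereas the site 4 nt from an end had 62 deletions in 8648 tags (0.717%, interval 0.560 to 0.918%). The others had 42 deletions in 1058 tags, 37 in 1678 and 29 in 29. The 2 subunits were the only genes of the 45 with 3 or more 3′UTR clusters (4.44%, against 4.4% of all protein-coding genes), so the share of genes with that many clusters was near the background.

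TYMS, which makes thymidylate (chromosome 18, 657653 to 673578, plus strand), had 6 sites. The leading site, at position 673487, had 309 deletions in 13381 tags (2.31%, interval 2.07 to 2.58%) and lay 3 nt past an annotated end and 91 nt before the next. A site 25 nt from an end had 240 deletions in 13517 tags (1.78%, interval 1.57 to 2.01%). The last site, 8 nt from the farthest end, had 37 deletions in 909 tags. All 6 positions are also in the 3′UTR of ENOSF1 on the opposite strand, and the list assigned them to the strand of TYMS. TK1, which salvages thymidine (chromosome 17, 78174091 to 78187233, minus strand), had 3 sites 17 to 25 nt from an end, with 81, 68 and 55 deletions in 14422 to 16156 tags. Their percentages, 0.340 to 0.505%, were low among the 45 genes, and no TK1 window of 51 nt held a poly(A) signal or the AUA motif.

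All 7 MCM genes had 3′UTR sites, 23 in 8 clusters, with a median of 86 deletions and 7759 tags. MCM2 to MCM7 form the ring of the helicase. MCM7 (chromosome 7, 100092233 to 100101940, minus strand) had 358 deletions in 8032 tags at its leading site, 11 nt from an end (4.46%, interval 4.03 to 4.93%). Its second site, 27 nt from the end, had 75 deletions in 7759 tags (0.967%, interval 0.772 to 1.21%). MCM3 (chromosome 6, 52264014 to 52284881, minus strand) had 8 sites in 1 cluster, 10 to 86 nt from an end. Its leading site had 344 deletions in 18643 tags (1.85%, interval 1.66 to 2.05%), the base next to it had 180 in 19041, and the site farthest from the end had 58 in 1714.

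The other ring subunits had fewer deletions. MCM4 had 3 sites with 97 to 104 deletions 16 to 25 nt from an end, and another with 41 deletions 253 nt from it. MCM5 had a single site with 71 deletions in 3159 tags (2.25%), 26 nt from an end, and MCM2 a single site with 49 deletions in 1494 tags (3.28%), 15 nt from an end. MCM6 was the exception in position. Its 4 sites, with 50 to 153 deletions in 4258 to 5801 tags, were 825 to 847 nt from the nearest annotated end downstream, and all 4 windows held a poly(A) signal. MCM10, which joins the helicase when it is activated, had 3 sites 11 to 35 nt from an end, led by 86 deletions in 1227 tags (7.01%, interval 5.71 to 8.58%).

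The origin recognition complex differed from subunit to subunit, with 3′UTR sites in 4 of 6 genes. ORC6 (chromosome 16, 46689643 to 46698394, plus strand) had 4 sites in 1 cluster, led by 379 deletions in 16716 tags (2.27%, interval 2.05 to 2.5%) at 2 nt from an end. This was the second highest count among the 45 genes. ORC3 had 41 deletions in 5786 tags (0.709%), ORC2 had 45 in 180 tags (25%, interval 19.2 to 31.8%) and 43 in 797 tags, and ORC4 had 45 in 708 tags and 19 in 44 tags. The ORC4 sites lay 4036 and 4935 nt from an end, in a canonical 3′UTR of 5117 nt, the longest of the 45. ORC1, the subunit whose level varies through the cell cycle, and ORC5 held no site.

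Among the licensing factors, CDC6 and GMNN had 3′UTR sites and CDT1 had none. CDC6 (chromosome 17, 40287879 to 40304657, plus strand) had 4 neighbouring sites with 81 to 197 deletions in 11757 to 12660 tags, 1750 to 1765 nt from the nearest downstream end, and another site at which all 10 tags carried the deletion. None of the 4 windows held a poly(A) signal and all 4 held the AUA motif. CDC6 was thus a well covered transcript whose leading contact lay apart from an annotated end and had neither AATAAA nor ATTAAA in its window. Other forms of the signal were not searched. GMNN (chromosome 6, 24774931 to 24786099, plus strand), the inhibitor of CDT1, had 5 sites 15 to 76 nt from an end. Its leading site had 167 deletions in 4244 tags (3.93%, interval 3.39 to 4.56%), and the site nearest the end had 56 in 13854 (0.404%, interval 0.311 to 0.524%).

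CDC45 had a single site, 6 nt from an end, with 155 deletions in 2397 tags (6.47%, interval 5.55 to 7.52%). In the GINS complex, GINS4 had 89 deletions in 1192 tags (7.47%, interval 6.11 to 9.10%) at 306 nt from an end, and GINS1 had 56 and 49 deletions in 3589 and 3475 tags at 2 and 10 nt from an end. GINS2 had only a site at which all 11 tags carried the deletion, and GINS3 had none.

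PCNA, the sliding clamp (chromosome 20, 5114953 to 5126626, minus strand), had 3 sites in 1 cluster, 22 to 35 nt from an end. They had 137 deletions in 5856 tags (2.34%, interval 1.98 to 2.76%), 101 in 6128 and 81 in 5747. Of the 5 subunits of its loader, RFC4 had the most deletions, 165 in 4773 tags (3.46%, interval 2.97 to 4.01%) in a 3′UTR of only 72 nt. RFC3 had 46 to 64 deletions at 3 sites 15 to 47 nt from an end, RFC1 had 54 deletions in 967 tags and RFC5 had 37 in 222 tags (16.7%, interval 12.3 to 22.1%). RFC2 held no site. RFC3 also had an intronic site with 81 deletions in 964 tags (8.40%), which lies in a noncoding exon of another gene on the same strand, ENSG00000276672.

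All 3 RPA subunits were bound. RPA1 (chromosome 17, 1829702 to 1900082, plus strand) had 5 sites in 1 cluster with 100 to 187 deletions in 5729 to 18556 tags, and this cluster lay 2017 to 2056 nt from the nearest downstream end with a poly(A) signal in every window. RPA2 had 146 deletions in 9348 tags and 97 in 7893, at 20 and 8 nt from an end. RPA3 had 6 sites in 2 clusters, with 42 to 72 deletions. In the first, 208 to 258 nt from an end, they were found among 2318 to 3093 tags, and in the second, 2 to 29 nt from an end, among 5611 to 9130 tags.

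The 9 genes of the polymerases and primase had 3 sites in their 3′UTRs. PRIM1, the catalytic subunit of primase, had 101 deletions in 1063 tags (9.50%, interval 7.88 to 11.4%), 47 nt from an end, at a position that also lies in an intron of ENSG00000285625. POLE2, an accessory subunit of polymerase epsilon, had 78 in 9039 tags (0.863%, interval 0.692 to 1.08%), 5 nt from an end, and POLD3, an accessory subunit of polymerase delta, had 57 in 1671 tags (3.41%, interval 2.64 to 4.39%), 382 nt from an end. No site was listed in POLA1, POLD1 or POLE, the catalytic subunits of polymerases alpha, delta and epsilon, nor in POLD2. POLA2 and PRIM2 held only intronic sites. FEN1, which trims flaps, and LIG1, which seals nicks, held none.

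Across these genes, 101 of the 114 sites (88.6%) lay in 3′UTRs, 2 in coding sequence and 11 in introns. Over all 25045 sites in protein-coding genes, 84.8% were in 3′UTRs. Coding sites were present in 2 genes, GMNN and RPA1 (4.44% of the genes, background 2.36%), with 12 and 19 tags that all carried the deletion. Intronic sites were present in 7 genes (15.6%, background 12%). Of the 11 intronic sites, 10 had deletions in 30% or more of their tags, and only the RFC3 site did not.

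**Figure D2:**
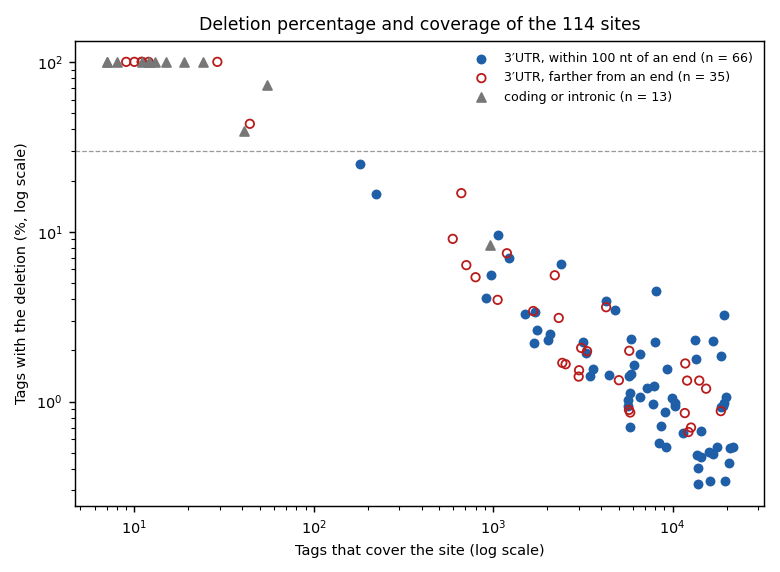
Percentage of tags with the deletion against the number of tags that cover the site, both on log scales, for the 114 sites. Filled circles are 3′UTR sites within 100 nt of an annotated end, open circles are 3′UTR sites farther away and triangles are coding or intronic sites. The 19 sites above the dashed line at 30% were covered by 7 to 55 tags, and the 3′UTR sites below it by 180 to 21720.

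Most percentages were low. In 3′UTRs, 94 sites had a percentage under 30% (93.1%, against 87.1% of all 21230 3′UTR sites), with 180 to 21720 tags per site. The 7 others had 9 to 44 tags, and at 6 of these every tag carried the deletion. The median was 72 deletions per 3′UTR site (quartiles 49 and 114) and 5801 tags (quartiles 2079 and 12660), with a median percentage of 1.56%. Over all 3′UTR sites the medians were 64 deletions, 4925.5 tags and 1.96%. Per gene, the leading site had a median of 95 deletions in the 32 genes and 82 in all 6362, and 18 of the 32 genes were above the latter. The members were thus spread over the range of bound transcripts, from RRM2, in the highest 4.42% of genes, to GINS2, at 96.4%.

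Most 3′UTR sites of the 45 genes lay near an annotated transcript end. The median distance to the nearest annotated end downstream was 39 nt (quartiles 19 and 382 nt) in the 45 genes and 38 nt (quartiles 18 and 342.8 nt) over all 3′UTR sites, which include those of the 45 genes, and the difference was not tested. Within 100 nt were 66 of 101 sites (65.3%) and 65.9% of all. With 1 site per cluster, the share in the 45 genes was 55.3%. The 101 sites formed 47 clusters, of which 26 came within 100 nt of an end and 21 did not. In 7 genes every cluster was farther away. These were MCM6, ORC4, CDC6, GINS2, GINS4, RPA1 and POLD3. The other 25 of the 32 genes with a 3′UTR site had one within 100 nt of an end. Over all protein-coding genes this held for 4994 of 6362, a similar share. In library preparation, fragments were given a poly(A) tail and captured on oligo(dT), which can also bind natural tails. The part of this step in the position of sites was not tested.

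**Figure D3:**
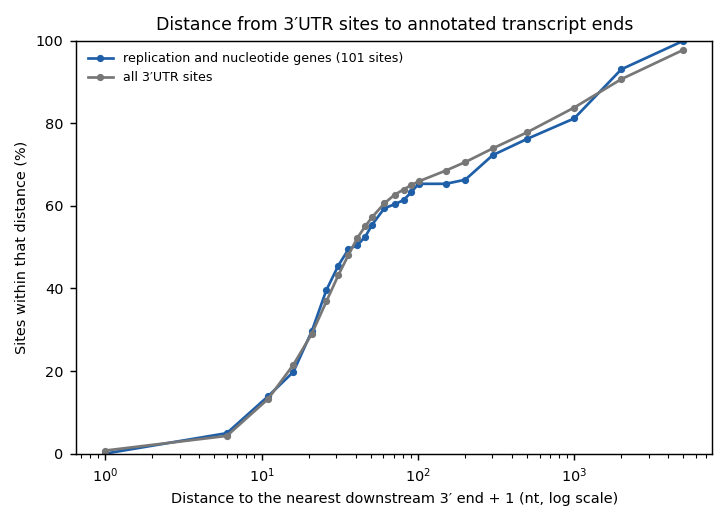
Cumulative percentage of 3′UTR sites within a given distance of the nearest annotated 3′ end downstream (log scale, distance plus 1 nt). The blue line is the 101 sites of the 45 genes and the gray line all 21230 3′UTR sites. Both reach about 65 to 66% at 100 nt, and neither curve has an error, since the replicates were pooled.

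A poly(A) signal was present in the 51-nt window around 73 of the 101 sites (72.3%), against 65.4% of all 3′UTR sites. AATAAA itself was in 65.3% of the windows, against 52.6%. The AUA motif, NNATANA with A, G or T as the first base and A or T at the other N, was in 68.3% of the windows, against 51.7%. Windows were searched on the transcript strand, and a motif match can contain AATAAA. A match apart from AATAAA was in 12 windows (11.9%), against 13.8% of all. In a second list of genes from the same pathways, described below, AATAAA was in 47.1% of windows and the AUA motif in 40.4%. Both shares were below those of all 3′UTR sites, so the higher shares of AATAAA and of the AUA motif did not extend to that list. A poly(A) signal of either form was in 68.3% of its windows, between the share here and that of all 3′UTR sites. The signal was in 52 of 66 windows within 100 nt of an end (78.8%, against 73.8% of all). It was in 21 of the 35 farther away (60%, against 49.1% of all). Of the 21 clusters far from an end, 10 had a site with the signal in its window. These were shares over sites of the same few transcripts, and their differences from the rest were not tested.

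Where the signal was present, the deletion lay 3′ of it at 32 sites, inside it at 10 and 5′ of it at 31. Over all 3′UTR sites, these shares were 37.4%, 16.3% and 46.3%, compared with 43.8%, 13.7% and 42.5% here. T was the deleted base at 70 sites (69.3%, against 65.5% of all), A at 18, C at 10 and G at 3. Of the deleted T, 44 were in a run of 3 or more T (62.9%, against 69.6% of all). Only 3 had no T beside them (4.29%, against 8.66%). A deletion within a run cannot be placed exactly, so the base is known better than the position.

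Base composition differed between the genes with and without a site. In the canonical transcript of each gene, the 3′UTR had a median of 61.8% A and T in the 32 genes with a 3′UTR site (range 40.1 to 75%) and 50.9% in the 13 without (range 41.8 to 59.4%). All 17 genes with at least 60% A and T had a 3′UTR site, whereas 12 of 19 genes from 50 to 60% and 3 of 9 under 50% had one. The 3 were MCM2, MCM7 and TK1, and the 6 without were CDT1, RFC2, POLA2, POLD1, POLE and LIG1. Over all protein-coding genes the same classes had sites in 41.3%, 30.8% and 19.2% of genes, so a rise with A and T was present in the background too. With only sites under 30% of tags, the counts in the 45 genes were 17, 11 and 3.

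The median length was 885.5 nt in the genes with a site (range 72 to 5117 nt) and 695 nt in those without (range 70 to 1421 nt). Over all protein-coding genes it was 1680 and 782.5 nt. AATAAA was in the last 50 nt of the canonical 3′UTR in 21 of 32 genes with a site (65.6%) and in 9 of 13 without (69.2%). Over all protein-coding genes these shares were 68.7% and 61.1%. The AUA motif was somewhere in the 3′UTR of 30 of 32 genes with a site (93.8%) and of 8 of 13 without (61.5%). All protein-coding genes had it in 91.1% and 73.3%, so a higher share with a site was present in the background too. The 3′UTRs of POLE, POLA2, FEN1, LIG1 and ORC1 did not hold the motif. These comparisons describe single genes of 1 pooled list, transcript abundance may differ between the classes, and its part in them was not tested.

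**Figure D4:**
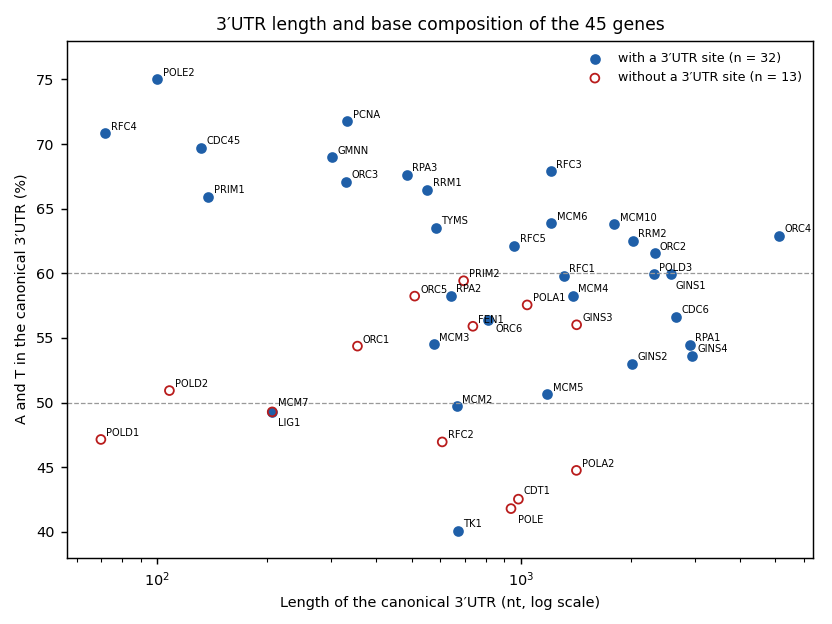
Length of the canonical 3′UTR (nt, log scale) and its percentage of A and T for the 45 genes. Filled circles are the 32 genes with a 3′UTR site and open circles the 13 without, with MCM7 and LIG1 at the same point. All 17 genes above the dashed line at 60% have a site, and the lower dashed line is at 50%.

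A second list of 50 genes from the same pathways, among them further enzymes of nucleotide synthesis, fork proteins and topoisomerases, had 3′UTR sites in 33 genes (66.0%) and a site of any kind in 36 (72.0%). The 5 with the most deletions were PAICS (1262 deletions in 29192 tags, 4.32%), a purine synthesis enzyme, TOP2A (1237 in 24607, 5.03%), a topoisomerase, DUT (558 in 22810, 2.45%), which removes dUTP, DCK (455 in 10815, 4.21%), which phosphorylates deoxycytidine, and POLE3 (365 in 4944, 7.38%), a subunit of polymerase epsilon. PAICS and TOP2A exceeded RRM2. A site within 100 nt of an end was present in 48.0% of its genes and in 55.6% of the 45.

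Some sites also lay in other genes. Of the 114, 4 lay in another gene on the same strand and 10 under a gene on the opposite strand, 6 of them in TYMS. The annotation names 18 pseudogenes after 10 of the 45 genes, PCNA, RRM2 and TYMS included, and 0 sites lay in these pseudogenes. Copies with other names were not searched, and the list cannot show how tags that match several places were handled.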

How the data were processed

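Sites of tagged RBMS3 came from CLIP-seq of MDA-MB-231 cells (2 biological replicates). The authors appended molecular identifiers, used the CLIP Tool Kit for alignment to hg38, pooled the unique tags and kept deletion sites that passed their false discovery and fold limits (what the fold compares is not stated). The version is not given in the sources used here. The deposited values are counts, not normalized: tags that cover each 21-nt site and tags with the deletion, also given in the deposited site names, which are not a score. Depth is known only per site.

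The deletion was taken as the centre of the interval. Sites were placed by strand on GENCODE release 44 (hg38), all transcripts, in the order 3′UTR, 5′UTR, coding, noncoding exon and intron. Sites within 50 nt formed clusters, and windows had 25 nt on each side. The canonical transcript gave 3′UTR composition, a comparison added after the sites had been seen. All 45 genes are accounted for, each bound gene by its leading site. Sequences are shown for the 12 genes with the most deletions, and the 5 leading genes of the second list are named. The members and lists were chosen with earlier results of these data known, so no test was made. Placement was tested on simulated data. Tools were samtools 1.23.1 and Python 3.11.15 with matplotlib 3.10.9, scipy 1.17.1, numpy 2.4.6 and pysam 0.24.0.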

Additional observations from a re-analysis of the deposited data

How the results depend on the processing

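Requiring a percentage of at least 10% left 22 sites, 15 genes with any site and 7 with a 3′UTR site. With the other filters and annotation rules there were 26 to 36 and 26 to 32 genes. The share of sites in 3′UTRs rose to 96.9% when 20 deletions were required and to 98.7% when 50 were. It was 98.9% below a percentage of 30% and 45.5% from 10% upward. Under this last filter the other shares rest on 10 sites: 20% were within 100 nt of an end, 0% held the signal, 0% the AUA motif and 80% had a deleted T. With 1 site per cluster, 55.3% were within 100 nt of an end, 57.4% held the AUA motif, 78.7% had a deleted T and the median percentage was 3.59%. A limit of 50 nt gave 55.4% near an end. Windows of 10 and 50 nt on each side held the signal at 34.7% and 82.2% of sites and the AUA motif at 33.7% and 77.2%. The AUA share was 80% with at least 50 deletions and 83.2% with a 5-nt core. For the shares and the median percentage, the other alternatives stayed within the 95% interval of the value reported, which treats neighbouring sites as independent. The gene counts had no such interval and were compared with fixed ranges around them, 22.7 to 51 genes and 21.3 to 48 genes. No paired analysis was possible because the replicates of the only group are pooled, which also meant that no replicate could be left out.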
